A study of Drosophila melanogaster with 3 samples.

Results

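The near-start intronic peaks of GFP-tagged CG15601 are the 1418 peaks of the reproducible peak list whose summit lay beyond 500 bp and up to 5000 bp from the nearest transcript start of any gene, inside a gene body and outside every exon. They made up 22.0% of that list, which holds 5040 other peaks. The list is the authors' own, thresholded by the irreproducible discovery rate (IDR), which judges how far rank order repeats between replicates. It held exactly the strongest peaks of the authors' pooled list, with the same coordinates, down to a signal of 181.9. Whether a single peak is in it therefore goes by its pooled signal, and support in single replicates is given further on. The 1418 peaks fell in 1365 separate regions, 119 of them overlapped another IDR peak, and 24 shared the interval of another member with a summit of their own. The other IDR peaks lay within 500 bp of a start (promoter, 3267), in introns more than 5000 bp from a start (deep intronic, 695), between genes (912) or in exons (166).

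Chromatin immunoprecipitation with sequencing used an anti-GFP antibody on whole Drosophila melanogaster embryos, pooled male and female, aged 0 to 14 h. The embryos came from 1 transgenic line that stably carries CG15601 with GFP joined to its C-terminal end, and chromatin was sonicated to 200 to 800 bp. All 3 samples are biological replicates of this 1 group, and no group without the tag is among them. A whole embryo mixes many cell types, so a peak can come from any of them, and the spread between replicates covers repeat collections of 1 line only.

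Introns hold many of the enhancers and other control elements of animal genes, and in compact genomes such as that of Drosophila these often lie in the first intron, close to the start of the gene. Genes that direct development tend to have long introns with several elements, while housekeeping genes such as those of ribosomal proteins have short ones. An element inside a gene may act on that gene or on a neighbour, and the position of a peak does not tell which.

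To show what DNA lay under the strongest of these peaks, the summit and 50 bp to each side of it are printed for the strongest 4 off the right arm of chromosome 2, read 5′ to 3′ on the plus strand of dm6. No sequence of that arm is printed, which leaves out the strongest member of all, in shn, and the one in EcR. Capitals, here and in the windows further on, mark any copy of a Forkhead word (GTAAACA, either strand), a homeodomain word (TAATTA) or a GATA word (AGATAA), and of the DRE word. CG11050 (chr2L:6612659-6612759) had rank 30 in the IDR list, ush (chr2L:481006-481106) rank 45, Lk6 (chr3R:11761009-11761109) rank 64 and CG32772 (chrX:4910341-4910441) rank 75. All 4 windows were rich in A and T, with a GC content of 22.8% for CG11050, 32.7% for ush, 30.7% for Lk6 and 27.7% for CG32772. The windows left out had more, 42.6% for shn and 43.6% for EcR.
CG11050: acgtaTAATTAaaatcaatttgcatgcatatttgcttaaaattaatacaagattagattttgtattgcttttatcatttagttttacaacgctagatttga
ush: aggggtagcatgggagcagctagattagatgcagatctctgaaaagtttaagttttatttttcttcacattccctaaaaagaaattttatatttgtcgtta
Lk6: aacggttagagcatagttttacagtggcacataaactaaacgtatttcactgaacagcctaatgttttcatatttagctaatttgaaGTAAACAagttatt
CG32772: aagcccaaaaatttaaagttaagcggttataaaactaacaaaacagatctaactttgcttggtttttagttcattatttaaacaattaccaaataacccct

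The Forkhead word had the highest ratio of its share in these windows to its share in all near-start intronic windows among the more frequent words searched (described further on), so the next 5 peaks that carry it are shown in the same way. They were in Trl (chr3L:14759464-14759564, rank 76), CG9663 (chr2L:3302135-3302235, rank 89), CG9837 (chr3R:8810573-8810673, rank 262), Oatp30B (chr2L:9525801-9525901, rank 269) and Dys (chr3R:19584899-19584999, rank 316). The CG9837 window holds the word on the minus strand, so it reads TGTTTAC in the line printed for it, and also holds the homeodomain word.
Trl: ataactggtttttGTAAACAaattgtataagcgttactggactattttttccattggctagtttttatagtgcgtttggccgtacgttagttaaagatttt
CG9663: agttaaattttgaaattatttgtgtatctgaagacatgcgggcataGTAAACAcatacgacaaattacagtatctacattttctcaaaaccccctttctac
CG9837: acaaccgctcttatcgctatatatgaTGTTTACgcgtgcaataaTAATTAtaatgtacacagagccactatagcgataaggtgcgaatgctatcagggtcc
Oatp30B: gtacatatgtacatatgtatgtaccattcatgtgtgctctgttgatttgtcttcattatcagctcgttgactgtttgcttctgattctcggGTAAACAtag
Dys: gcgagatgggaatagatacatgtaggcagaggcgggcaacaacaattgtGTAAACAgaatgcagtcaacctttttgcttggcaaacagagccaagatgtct

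The DRE word (TATCGATA), which binds the factor Dref and is common at Drosophila promoters, was in 2 of the 1418 windows. They are shown because they are the exceptions, and the Bicra window also holds the Forkhead word on the minus strand. Stt3A (chrX:21053233-21053333) had rank 2821 and a signal of 337.6, and Bicra (chr3R:29066395-29066495) had rank 5616 and a signal of 203.8.
Stt3A: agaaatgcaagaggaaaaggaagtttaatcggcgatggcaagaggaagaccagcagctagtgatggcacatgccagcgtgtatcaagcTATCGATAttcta
Bicra: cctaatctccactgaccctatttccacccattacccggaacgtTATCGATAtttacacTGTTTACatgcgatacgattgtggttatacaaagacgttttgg

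Near-start intronic peaks were densest within 1000 bp of a start, and beyond 2000 bp their density varied little. Intronic sequence at this distance from a start covers 24.5 Mb, or 18.3% of the chromosome arms, and held 57.8 IDR peaks per Mb, against 24.6 per Mb in the 28.3 Mb of deep intronic sequence and 48.2 per Mb over all arms. Up to 1000 bp from the start the density was 84.4 per Mb, between 1000 and 2000 bp it was 63.7, between 2000 and 3000 bp 46.5, between 3000 and 4000 bp 47.2 and between 4000 and 5000 bp 42.6. Each replicate list was cut by signal to as many peaks as the IDR list holds, here called its strong peaks. Among the strong peaks the nearest bin held 94.3, 82.3 and 80.5 peaks per Mb in replicates 1, 2 and 3 (85.7 ± 7.52, SD, n = 3), the bin between 1000 and 2000 bp 68.5, 66.4 and 61.0 (65.3 ± 3.89), and the farthest 52.3, 41.7 and 37.1 (43.7 ± 7.77). The lowest replicate of the nearest bin was above the highest replicate of the second, and the lowest of the second above the highest of the farthest. Over the last 3 bins replicate 1 had 51.3, 49.8 and 52.3 per Mb, with no fall, replicate 2 had 49.1, 44.8 and 41.7, and replicate 3 had 42.3, 38.8 and 37.1.

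**Figure D1:**
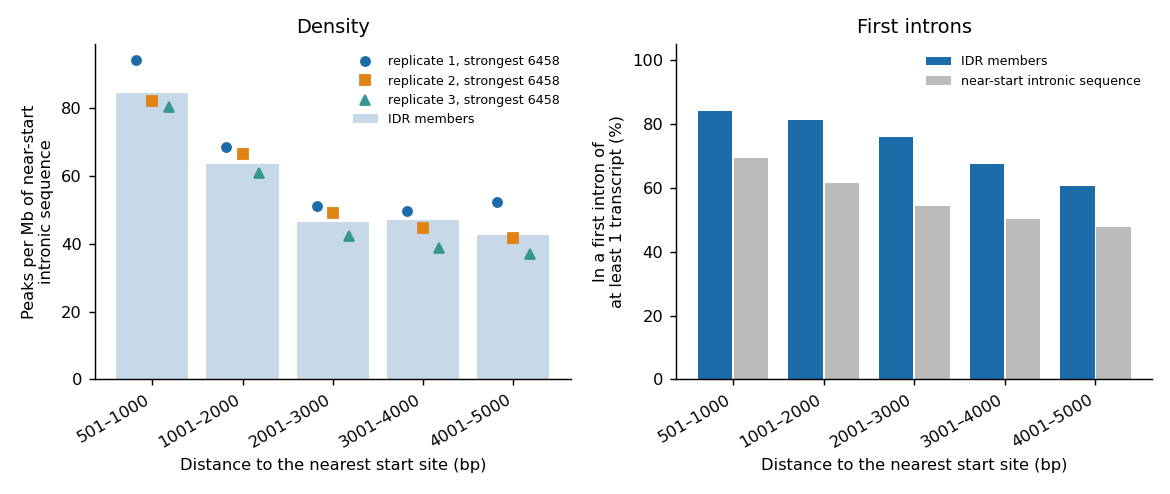
Left, near-start intronic peaks per Mb of intronic sequence by distance to the nearest start (bp), as bars for the IDR list and as points for the strong peaks of each of the 3 replicates (the strongest of its list, as many as the IDR list holds). Right, the percentage of members (blue) and of near-start intronic sequence (grey) in the first intron of at least 1 transcript. Density is 84.4 per Mb in the first bin and 42.6 in the last, and the blue bar is the higher one in all 5 bins.

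The near-start intronic share of the strong peaks was 24.3%, 22.1% and 20.2% in replicates 1, 2 and 3 (22.2% ± 2.03, SD, n = 3). By arm, the 4 large autosomal arms held 55.5 to 63.6 members per Mb of such sequence, and the X chromosome 60.3 per Mb (292 members). The ratio of X to those autosomal arms was 1.03, 0.969 and 0.966 in replicates 1, 2 and 3 (0.987 ± 0.0335), so X and the autosomal arms did not differ beyond the replicate spread. Chromosome 4 held 2 members, or 6.33 per Mb of its 0.316 Mb of such sequence, in Mitf and Asator, and the replicates gave 6.33, 6.33 and 9.50 per Mb there. These counts are small, and chromosome 4 is known for its unusual, largely heterochromatic packaging.

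Most members lay in a first intron. In 1090 of 1418 (76.9%) the summit was in the first intron of at least 1 transcript, against 57.4% of the bases of near-start intronic sequence. It was the first intron in every transcript for 678 members (47.8%, against 36.4% of bases), in some transcripts for 412 (29.1% against 21.0%) and in none for 328 (23.1% against 42.6%). The share depended on distance in both: up to 1000 bp it was 84.1% of members against 69.2% of bases, and in the last 1000 bp up to 5000 bp 60.4% against 47.6%. Counted in the shortest intron that holds the summit, 921 members were in intron 1, 338 in intron 2, 82 in intron 3 and 77 further down.

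In the replicate lists, near-start intronic peaks lay in a first intron in 75.5%, 76.5% and 76.5% of cases, and deep intronic peaks in 51.9%, 56.3% and 53.3%. The difference was 22.3 percentage points ± 1.88 (SD, n = 3), in the same direction in 3 of 3 replicates. An exact sign-flip permutation test over the 3 replicates, two-sided, gave p = 0.25, the smallest that 3 replicates can give, so no comparison here can pass 0.05. Over the 12 such comparisons made, the Benjamini-Hochberg adjusted value for an exact p of 0.25 is 0.429. The classes are defined by distance to a start, and the sequence itself differs in the same direction, with 57.4% of near-start and 31.2% of deep intronic bases in a first intron. The difference between the peaks was no larger than that between the sequences. Deep intronic peaks also stood above their sequence, at a replicate mean of 53.8%, so an excess in first introns was not particular to near-start peaks. First or later position did not go with strength: median signal, the authors' value for each peak, was 320.1 for members first in every transcript and 311.3 for members first in none.

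The summit sat downstream of a host gene's own start for 793 members and upstream of one for 335, in genes with more than 1 start. For the other 290 (20.5%), the nearest start belonged to another gene, and those summits lay deeper in the host, at a median of 5616 bp from the 5′ end of the intron. That nearest start was of a protein-coding gene for 1262 of the 1418 members, of a non-coding RNA for 129, and of a tRNA or snoRNA for 11 each.

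The strongest members were strong in every replicate. The strongest of all lay in the first intron of shn, which encodes Schnurri, the zinc finger repressor of the Dpp pathway (Dpp is the fly BMP signal). It ranked 9 in the IDR list and 10, 9 and 9 in replicates 1, 2 and 3, with a signal of 14103 in the pooled data. A neighbouring peak of the same intron had rank 86 and ranks 182, 95 and 69 in the replicates. All 20 of the strongest 20 members matched a strong peak of replicates 1, 2 and 3, and their worst rank in any replicate was 255. They were picked by the signal of these same replicates pooled, so their replicate ranks are not independent support. In 16 of the 20 the host also had an IDR peak at a promoter of its own, against 64.4% of all members, and 15 lay in a first intron, a share close to the 76.9% of all members. Of the 20, 15 had a GC content under 34% at the summit. The mean over all members was 33.8% and their share under 34% was not counted, so this does not set the 20 apart.

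**Figure D2:**
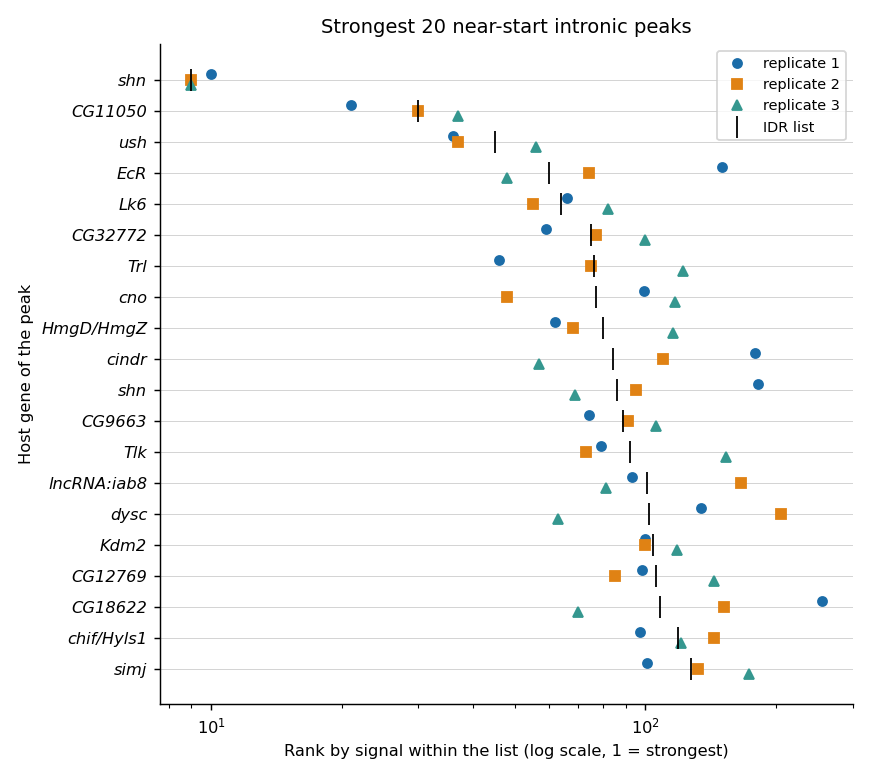
Rank by signal (log axis, 1 is strongest) of the strongest 20 near-start intronic peaks, one row per peak labelled by host gene, in replicates 1, 2 and 3 (coloured points) and in the IDR list (black tick). The shn peak ranks 9 or 10 in every list, and no point lies beyond rank 255.

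Several of these 20 were in genes of transcription and chromatin. The member in ush, which encodes U-shaped, a partner of GATA factors, ranked 36, 37 and 56 in replicates 1, 2 and 3, and its nearest start was that of the neighbour cbt. The member in EcR, the ecdysone receptor gene, ranked 150, 74 and 48, and its nearest start was a tRNA gene inside the intron. Trl, which encodes the GAGA factor, had ranks 46, 75 and 122. HmgD and HmgZ, genes of HMG-box chromatin proteins, shared a member with ranks 62, 68 and 116. Kdm2, a histone demethylase gene, had ranks 100, 100 and 118, and simj, which encodes a subunit of the NuRD complex, had an IDR rank of 127 and no rank beyond 173 in a replicate. Replicate order differed between them: replicate 1 gave EcR its worst rank and Trl its best.

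Others were in genes of signalling and of cell shape. Lk6 encodes a kinase of the translation factor eIF4E, and its member ranked 66, 55 and 82 in replicates 1, 2 and 3. Tlk, the Tousled-like kinase gene, had ranks 79, 73 and 153. The member in cno, which encodes the junction protein Canoe, ranked 99, 48 and 117. The member in cindr, which encodes an SH3 adaptor, ranked 179, 110 and 57. GC content at the summit was 43.6% for cno and 52.5% for cindr, in the upper part of the range of 17.8% to 52.5% over the 20. The cell cycle gene chif and the centriole gene Hyls1 shared a member with ranks 97, 144 and 121. The non-coding transcript lncRNA:iab8 of the bithorax complex had ranks 93, 166 and 81. CG11050 had ranks 21, 30 and 37, CG32772 59, 77 and 100, CG9663 74, 91 and 106, CG12769 98, 85 and 144, CG18622 255, 152 and 70, and dysc 134, 205 and 63.

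Replicate support of the class as a whole was close to that of all IDR peaks. Support here means an overlap of at least 50% of both peaks with one of the strong peaks of a replicate. By this rule 592 members (41.7%) were matched in all 3 replicates, against 41.3% of all IDR peaks, 43.4% of promoter and 35.7% of deep intronic peaks. A further 381 were matched in 2 replicates, 270 in 1 and 175 in none. Replicates 1, 2 and 3 matched 66.7%, 68.5% and 62.8% of members (66.0% ± 2.89, SD, n = 3). For deep intronic peaks they matched 64.6%, 66.3% and 58.4%, so the difference was 2.89 points ± 1.32, higher in 3 of 3 replicates (exact sign-flip permutation test, two-sided, p = 0.25). It depended on the rule: it was 1.42 with an overlap of at least 1 bp, 0.358 with summits within 100 bp (exact p = 0.75), and -0.412 by 1 bp and -1.13 by summits over every peak of the replicate lists (exact p = 1.00 and 0.50). For promoter peaks they matched 60.8%, 72.9% and 76.4%. Members were above promoter peaks in replicate 1 and below them in replicates 2 and 3, a difference of -4.04 ± 9.77 that is smaller than its spread (exact p = 0.75).

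**Figure D3:**
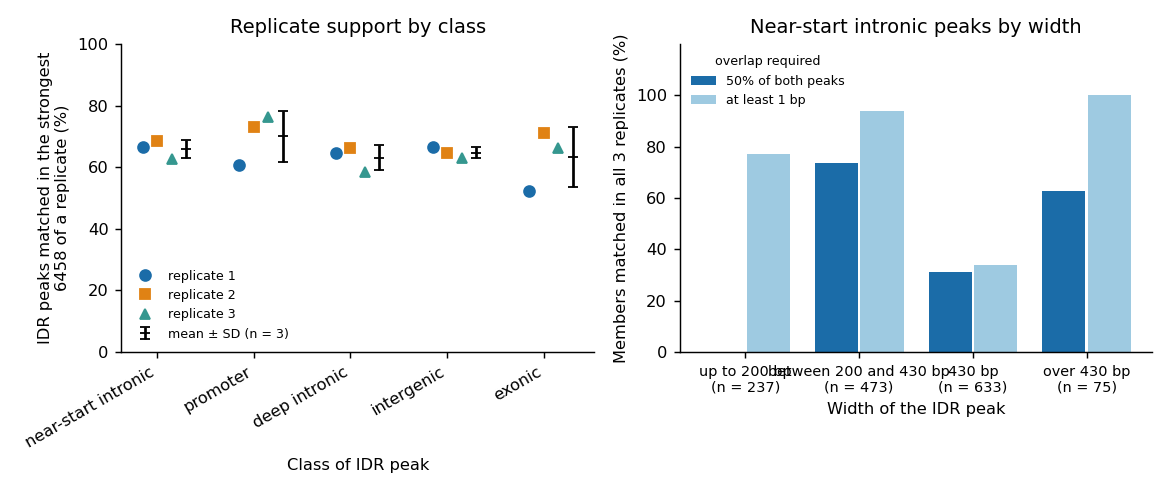
Left, percentage of IDR peaks of each class matched in the strong peaks of replicates 1, 2 and 3 (coloured points), with the mean and SD of the 3 in black. Right, percentage of near-start intronic peaks matched in all 3 replicates by width, when the overlap must be 50% of both peaks (dark) or at least 1 bp (light). Of members up to 200 bp wide, 0% pass the first rule and 77.2% the second.

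Members without support were mostly narrow peaks. All 237 members up to 200 bp wide stand in the pooled list with the same coordinates, and 26706 of the 30000 pooled peaks have 1 width, 430 bp. How widths were set is not given in the sources used here. In the whole lists of replicates 1, 2 and 3, 94.5%, 93.0% and 93.7% of peaks had 1 width, of 404, 420 and 410 bp. A member up to 200 bp wide cannot cover 50% of such a peak. By the 50% rule it can therefore match only narrower replicate peaks, so its lack of a match follows in part from the rule. Among the strong peaks used for matching, 9.69%, 10.9% and 11.5% in replicates 1, 2 and 3 were at most 200 bp wide. Beyond these values the part of width in the support by the 50% rule was not tested. The 175 members matched in no replicate had a median width of 152 bp, against 366 bp for those matched in all 3, and 155 of the 175 were at most 200 bp wide. They were not weak: their median signal was 311.0, against 224.6 for those matched in 1 replicate and 463.7 for those matched in all 3. With an overlap of at least 1 bp in place of 50%, 132 of the 175 (75.4%) had a match among the strongest peaks of all 3 replicates. Of the 237 members up to 200 bp wide, 0 met the 50% rule in all 3 replicates and 183 (77.2%) met the 1 bp rule. Of the 633 members of exactly 430 bp, the median width of the IDR list, 197 (31.1%) and 214 (33.8%) did so, and their median signal was 231.7. Members wider than 200 bp and narrower than 430 bp were matched most often by the 50% rule, in 348 of 473 cases (73.6%). Over whole replicate lists and by 1 bp, 97.1% of members were matched in all 3, against 88.9% of promoter and 98.3% of deep intronic peaks.

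Strength covered nearly the whole range of the list. Signal of members ran between 182.0 and 14103, with a median of 314.4, against 314.3 for promoter and 289.3 for deep intronic peaks. Of the strongest 100 IDR peaks 13 were members, below their share of 22.0% of the list, and of the strongest 500 there were 107. Promoter peaks, 50.6% of the list, were 69 of the strongest 100 and 286 of the strongest 500. Within replicate lists the median percentile of signal was 48.2, 53.8 and 50.8 for near-start intronic peaks in replicates 1, 2 and 3, and 43.8, 48.2 and 43.6 for deep intronic peaks. The difference was 5.76 points ± 1.35, higher in 3 of 3 replicates (exact sign-flip permutation test, two-sided, p = 0.25). Against promoter peaks, with 54.9, 49.5 and 51.6, the difference was -1.07 ± 5.52 and changed sign between replicates (exact p = 0.75).

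Stronger members were matched more often. Of the strongest 100 members 93.0% were matched in all 3 replicates, of the next 400 by signal 64.5%, and of the rest 26.3%. The signal that orders them comes from the same 3 replicates pooled, and a match needs a high signal in each. This order is therefore not independent of the match. The pooled list of 30000 peaks, of which 21.5% are IDR peaks, held 7913 near-start intronic peaks. Of these 17.9% were IDR peaks, against 35.4% of pooled promoter peaks, 14.4% of deep intronic and 15.2% of intergenic ones.

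The members lay in 903 host genes, 871 protein-coding and 31 of non-coding RNA. These are 9.47% of the 9533 genes that have any near-start intronic sequence, and the share went with its length: 0.891% of genes with up to 1000 bp of it were hosts, 11.5% with 1000 to 3000 bp, 19.6% with 3000 to 6000 bp and 40.1% with more. Per Mb the last 3 groups had 70.3, 63.2 and 57.8 peaks, and genes with up to 1000 bp had 34.6. Of the 903 hosts, 582 held 1 member, 321 held at least 2, and 32 held 5 or more. In the replicate lists, 665 of the 903 (73.6%) were hosts in all 3, and 4 were hosts in none. For 108 members the genes overlap and there was more than 1 host.

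A few genes held many members. The non-coding gene lncRNA:CR44357 had 16 and the protein-coding gene CG1677 had 15, but 15 are the same peaks, since these genes overlap on the X chromosome. They spread over positions 7292094 to 7338690 (dm6), with 2 of the 15 in a first intron of at least 1 transcript, and 10 of the 15 were matched in all 3 replicates. The nearest starts were those of other genes nested there: unc-119, brk, CBP, Dok, CG42780 and Atg5. Those beside brk, which encodes Brinker, the repressor of Dpp target genes, lay 721, 1898 and 517 bp from its start and ranked 530, 3815 and 5912 in the IDR list. The first of these ranked 202 in replicate 1 and 1484 in replicate 3, and had no match in replicate 2 by the rule of 50% overlap. It did overlap a peak of rank 672 in replicate 2. The member 517 bp from the start had its summit inside the interval of the first and the same matches in the replicates, so these 2 are not separate regions.

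The gene shn also held 15 members, in 12 regions between 11175546 and 11207216 of arm 2R, all nearest to a start of shn itself. Their signal ran between 183.8 and 14103 with a median of 576.3, and 9 of the 15 lay in a first intron of at least 1 transcript. Of the 15, 5 were matched in all 3 replicates. CHES-1-like, which encodes a Forkhead-family factor, held 9 in its first intron on X, which is 613.8 per Mb of its near-start intronic sequence. Of these 9, 4 were matched in all 3 replicates and 1 in none. SNF4Agamma, which encodes a subunit of the AMP-activated kinase, held 9, of which 1 was matched in all 3 replicates, and sick held 9, of which 3 were. The adaptor gene cindr had 8 members in 11.5 kb, or 697.5 per Mb, in 6 regions, and 3 of them were matched in all 3 replicates. CG1677, shn, CHES-1-like, SNF4Agamma, sick and cindr each had an IDR peak at a promoter of their own, and lncRNA:CR44357 had none.

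Host genes had a promoter peak more often than other genes. Of the 903 hosts 55.5% had an IDR peak at a promoter of their own, with its summit no more than 500 bp off a start, against 2384 of the 8630 other genes with near-start intronic sequence (27.6%) and 30.3% of all 9533. The gap widened with the length of such sequence. With up to 1000 bp the shares were 39.6% of 53 hosts and 27.3% of 5895 other genes, with 1000 to 3000 bp 73 of 146 hosts and 32.0% of other genes, with 3000 to 6000 bp 54.2% and 25.1%, and with more than 6000 bp 59.4% of 488 hosts and 26.2% of 728 other genes. In the lists of replicates 1, 2 and 3 the shares were 47.4%, 57.7% and 58.2% of hosts and 24.8%, 27.2% and 30.8% of other genes. The difference was 26.9 points ± 4.0 (SD, n = 3), higher in 3 of 3 replicates (exact sign-flip permutation test, two-sided, p = 0.25). Hosts of deep intronic peaks had a promoter peak in 41.9%, 58.0% and 57.9% of cases, so the difference from near-start hosts, 1.87 ± 3.18, was within its spread (exact p = 0.50). By member, 913 lay in a host with such a promoter peak and 505 in a host without one. In 10 members the peak merged with a promoter IDR peak, of any gene, into 1 region. The other 1408 lay in regions without a promoter IDR peak.

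Gene lists of pathways and classes differed in how many members their introns held, also per length of sequence. Over all genes the density was 58.5 members per Mb of near-start intronic sequence, counting a member once for each host. In the 14 lists it ran between 0 and 203.8 per Mb. The lists for Dpp and activin, Hedgehog, Wnt, receptor tyrosine kinases, JAK/STAT, nuclear receptors and neural and mesodermal transcription factors were above the density of all genes in every replicate list. The Hox and muscle lists lay close to it in the IDR list, but they too were above it in every replicate list. In replicates 1, 2 and 3 the Hox list stood at 1.64, 1.01 and 1.22 times the density of all genes. The muscle list stood at 1.09, 1.05 and 1.39 times that density. Those for axon guidance, ion channels and segmentation factors were below it in every replicate list, and Notch was above it in 1 of 3. No test was made of a list.

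**Figure D4:**
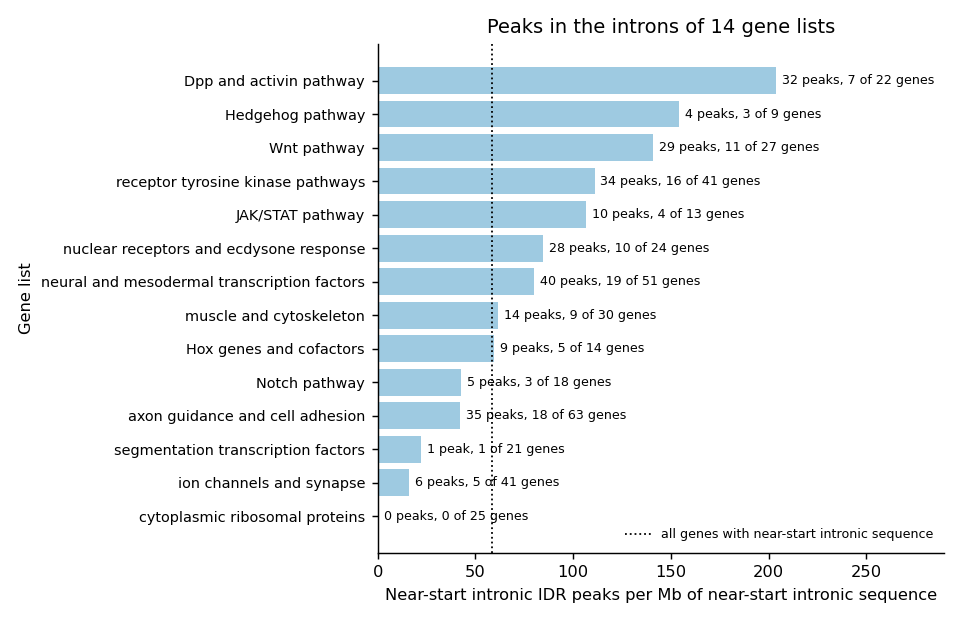
Near-start intronic IDR peaks per Mb of near-start intronic sequence in the genes of each list, with the number of peaks and of host genes among genes with such sequence; the dotted line is the value for all genes, 58.5 per Mb. The Dpp and activin list stands at 203.8 per Mb and cytoplasmic ribosomal protein genes at 0.

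The Dpp and activin list held 32 members in 7 of its 22 genes with near-start intronic sequence, and gave 184.7, 210.1 and 210.1 per Mb in replicates 1, 2 and 3 against 64.6, 58.7 and 53.9 for all genes. Much of this was shn with 15 and tkv, the type I receptor gene, with 8. Without these 2 genes the list held 9 members in 5 of 20 genes, or 89.7 per Mb. Mad, the gene of the pathway's Smad transducer, had 2 members, and the stronger lay 696 bp from its start with ranks 306, 356 and 314 in the replicates. The glypican gene dlp had 2 with IDR ranks of 691 and 877. The other hosts were dally, wit and sog. The 8 tkv members had a lower median signal than those of shn, 266.9 against 576.3, but the ranges overlapped. In the IDR list the tkv members ranked 1207 to 6132 and the shn members 9 to 6386. Of the 8 in tkv, 2 were matched in all 3 replicates.

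The Wnt list held 29 members in 11 of 27 genes, or 140.8 per Mb, and 150.5, 140.8 and 131.1 in replicates 1, 2 and 3. Its strongest were in the receptor gene fz (rank 619), in nkd, a feedback inhibitor (rank 679), and in Notum, which encodes an enzyme that inactivates Wnt (rank 824). The nkd member ranked 672, 797 and 665 in the replicates. The fz member overlapped peaks of rank 896, 481 and 739, and by the rule of 50% of both peaks its best matches were at 5320, 481 and 9043. The Hedgehog list had 4 members in 3 of 9 genes, with 2 in ptc, the receptor gene, and 1 each in boi, a co-receptor gene, and Pka-C1. That is 154.2 per Mb, from 25.9 kb of sequence.

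Receptor tyrosine kinase pathways held 34 members in 16 of 41 genes, or 111.0 per Mb, and the values of replicates 1, 2 and 3 were 124.0, 111.0 and 117.5. The insulin receptor gene InR led with a member 662 bp from its start that ranked 190, 102 and 300. The member in aos, which encodes the secreted EGF antagonist Argos, ranked 144, 171 and 228. Raf, the kinase gene, had 5 members in later introns, the strongest with ranks 223, 175 and 262. JAK/STAT genes held 10 in 4 of 13 genes (106.7 per Mb), and the leading one, in the repressor gene ken, ranked 240, 522 and 351. Stat92E, the transcription factor of that pathway, had 2, with a best rank of 1434 in the IDR list. The gene ken also had 2 and Socs36E had 1, and the rest of the 10 lay in 1 gene, Ptp61F.

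Nuclear receptor and ecdysone response genes held 28 members in 10 of 24 genes and the same number, 28, in each of the 3 replicate lists (84.6 per Mb). Besides EcR these included the nuclear receptor genes Hr4, with 5 members and a best rank of 387, and Eip75B, with 6 and a best rank of 636. Neural and mesodermal factors held 40 in 19 of 51 genes (79.9 per Mb). After ush these were led by grh, the epidermal factor Grainyhead, with ranks 393, 414 and 368 in replicates 1, 2 and 3, and sim, a gene of midline fate, with ranks 537, 442 and 736. Hox genes and cofactors held 9 in 5 of 14 genes (59.4 per Mb), with Abd-B at 3 and lab at 2. Muscle and cytoskeleton genes held 14 in 9 of 30 genes (61.6 per Mb), led by Msp300 at rank 414.

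At the other end, axon guidance and adhesion genes held 35 members in 18 of 63 genes, but over 830.4 kb of sequence, or 42.1 per Mb. The leading one was in kirre, a gene of myoblast fusion, with ranks 265, 335 and 340 in the replicates. Ion channel and synapse genes held 6 in 5 of 41 genes (15.9 per Mb, and 23.9, 15.9 and 10.6 in replicates 1, 2 and 3), 2 of them in the potassium channel gene KCNQ. Their median of 7592 bp of near-start intronic sequence per gene was above the 6701 bp of the neural and mesodermal factors. Notch pathway genes held 5 in 3 of 18 (42.7 per Mb). Segmentation factors held 1 in 21 genes, a weak member in cad with rank 5768. That is 22.1 per Mb from 45.3 kb of near-start intronic sequence. Replicates 1, 2 and 3 held 1, 0 and 1 peaks there, and these counts are small. Cytoplasmic ribosomal protein genes held 0 in 25 genes, but these have 5.26 kb of such sequence in all.

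The DNA under the summits was poor in G and C. Within 50 bp of the summit the mean GC content of members was 33.8%, against 39.6% over all windows of near-start intronic sequence and 38.3% at near-start intronic peaks of the pooled list outside the IDR list. For the strongest 100 members it was 31.2%, for the next 400 it was 32.2%, and for the rest 34.8%. In replicates 1, 2 and 3 near-start intronic peaks had 33.1%, 35.0% and 34.7% GC, deep intronic peaks 33.1%, 35.5% and 34.6%, and promoter peaks 33.2%, 36.3% and 36.5%. The difference from deep intronic peaks, -0.137 ± 0.373, was within its spread (exact p = 1.00). That from promoter peaks was -1.07 ± 0.938, lower in 3 of 3 replicates (exact p = 0.25), but -0.485 in the stronger 50% of each list (exact p = 0.50) and -0.213 within 100 bp of the summit (exact p = 0.75), and in both settings the replicates differed in sign.

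Of 24 words searched on both strands, the Forkhead word GTAAACA had the highest ratio to the surrounding sequence, 3.06, among those found in at least 100 members. By difference in share the TATA word and the Pho core, given further on, stood further from it. It was in 104 of 1418 windows (7.33%, exact 95% interval 6.03 to 8.82, counting error only), against 2.39% of all near-start intronic windows and 3.59% of weaker pooled peaks of the same class. Promoter windows held it in 4.07% of cases, intergenic ones in 2.74% and deep intronic ones in 7.19%. Exonic windows, which are few, held it in 12 of 166 cases (7.23%, interval 3.79 to 12.3), so the share was not particular to introns. Replicates 1, 2 and 3 gave 5.74%, 7.56% and 6.97% for near-start intronic peaks and 2.27%, 3.15% and 2.29% for intergenic peaks. The difference of 4.19 points ± 0.636 was higher in 3 of 3 replicates (exact sign-flip permutation test, two-sided, p = 0.25). From promoter peaks the difference was 2.92 ± 0.824 (exact p = 0.25) and from deep intronic peaks -0.0219 ± 0.573 (exact p = 1.00). These 3 comparisons were chosen after the words had been counted.

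The word clustered at the summit. Counted in 50 bp bins, the central bin held 66 copies, or 0.931 per kb, and the bins on either side held 0.522 and 0.705. At 400 bp to either side there were 0.240 and 0.113 per kb, and over all near-start intronic windows 0.241. Deep intronic peaks had 1.01 per kb in the central bin, promoter peaks 0.508 and intergenic peaks 0.329. The excess was absent from the most A and T rich windows. Among windows with under 30% GC, 2.92% of members and 2.85% of all near-start intronic windows held the word. At 30 to 40% GC these were 9.19% and 2.86%, and at 40% or more 11.6% and 1.89%. It was in 8.07% of members in a first intron and 4.88% of those in later introns only, with overlapping intervals of 6.53 to 9.85 and 2.81 to 7.80. It lay on the strand of the host gene in 41 windows and on the opposite strand in 58.

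**Figure D5:**
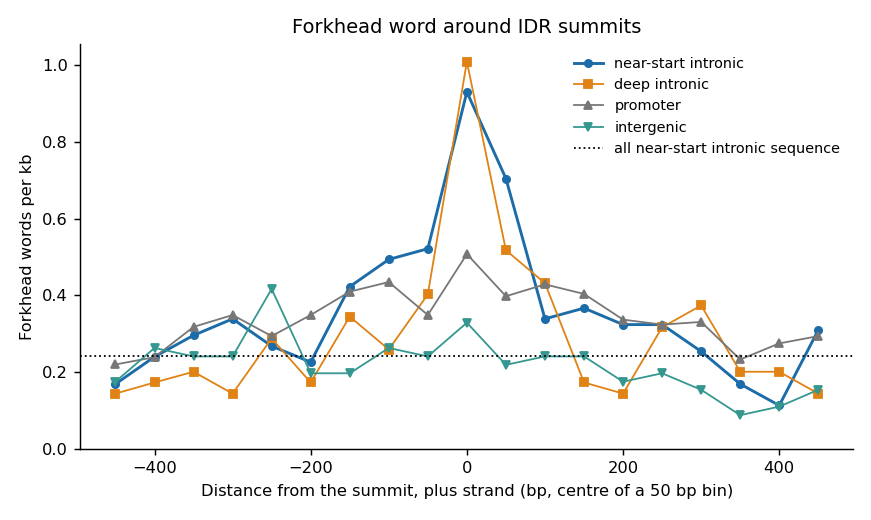
Copies of the Forkhead word per kb in 50 bp bins by distance from the summit on the plus strand (bp), for near-start intronic, deep intronic, promoter and intergenic IDR peaks, with the value over all near-start intronic sequence dotted. The near-start and deep intronic lines peak at 0.931 and 1.01 per kb at the summit, and the intergenic line at 0.329 there.

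For the TATA and GATA words the shares came closer within ranges of GC content. TATAAA was in 22.4% of members against 13.8% of all near-start intronic windows. Within windows of under 30% GC, however, the shares were 39.1% and 33.2%, and at 30 to 40% GC 16.7% and 16.5%. At 40% GC or more the share was lower in members, at 4.15% against 5.27%. The GATA word AGATAA was in 9.52% against 6.60%, and in 12.8% against 10.7% under 30% GC, 8.82% against 7.98% at 30 to 40% and 5.34% against 4.20% at 40% or more. The E-box CATATG was in 5.43% against 3.35%, and at 30 to 40% GC in 6.57% against 3.96%. Some words with more G and C were less frequent in members. The Pho core GCCAT was in 12.5% against 19.2%, and the Ets word CCGGAA in 0.846% against 2.28%. Both were lower within each range of GC content too. For the Pho core the shares were 6.57% against 8.45% under 30% GC, 13.3% against 16.9% at 30 to 40% and 20.8% against 24.6% at 40% or more. The DRE word was in 0.141% of members and 4.59% of promoter peaks, and the M1BP word GGTCACAC in 0.0705% and 3.06%. The CTCF core word AGGTGGCG was more frequent in members, in 5 of them (0.353% against 0.172% of all near-start intronic windows). So was the Zelda word CAGGTAG, in 9 (0.635% against 0.482%), and both counts are small. A match is only a match of letters, and no word says which protein was bound.

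The distance limits cut through a continuous series of peaks. Just beyond the lower limit of 500 bp was a member in MESR3, at 502 bp with a signal of 634.6, and just short of it were peaks in CG14434 at 500 bp and 499 bp with signals of 1262 and 242.0. Within 100 bp of that limit there were 88 members inside and 98 intronic peaks outside. Just inside 5000 bp was a member in cno at 4996 bp with a signal of 394.1, and just outside one in tara at 5021 bp with 349.3, and within 100 bp there were 12 inside and 18 outside.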

How the data were processed

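Peak lists were deposited for 3 biological replicates, for the replicates pooled and for the IDR threshold, on dm6. The signal of each peak (column 7) is the authors' own value, and it was compared only among peaks of 1 list. The sources used here name neither a peak caller nor an aligner. Each replicate list and the pooled list held 30000 peaks, and read depth is unknown. Intervals of shares are exact 95% binomial intervals (Clopper-Pearson) and cover counting error only.

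Summits were placed on Ensembl release 115 (18164 genes, 23581 start sites), with sequence from RefSeq's copy of genome release 6. Each replicate list was cut to its strongest 6458 peaks by signal, the length of the IDR list. Differences between classes were taken within each replicate and tested by an exact sign-flip permutation test, two-sided, over the 3 replicates. Words were counted within 50 bp of the summit. Peaks and genes are not replicates, so no test ran over them.

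Members, gene lists and words were chosen with earlier results of these data known. The text names the 20 strongest members, the 5 hosts with most members and the 3 leading hosts of each list. Genes named beside these, among them brk, cindr and tkv, were chosen after their values were seen. Code was checked on simulated data (Python 3.11.15, numpy 2.4.6, pandas 2.3.3, scipy 1.17.1).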

Additional observations from a re-analysis of the deposited data

How the results depend on the processing

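Of 12 differences tested over replicates, 6 kept their sign in every alternative run: percentile of signal and first introns against deep intronic peaks, GC content against promoter peaks, promoter peaks of hosts against other genes, and Forkhead shares against intergenic and promoter peaks. The alternatives for the hosts against other genes and for the Forkhead shares were added after seeing the data.

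The difference in support from deep intronic peaks reversed to -0.412 with any overlap and -1.13 with summits within 100 bp when every peak of the replicate lists was used, settings added after seeing the data. That from promoter peaks reversed to 0.514 with any overlap, to 2.09 with summits within 100 bp, to 2.76 and 4.44 with the same rules over every peak, and lay between -9.02 and 0.745 when 1 replicate was left out (0.745 without replicate 3). Percentile of signal against promoter peaks lay between -3.77 and 1.75 with 1 replicate left out (1.75 without replicate 1). The promoter peaks of hosts against deep intronic hosts became -0.192 when only the stronger 50% of each list was used. GC content against deep intronic peaks lay between -0.248 and 0.0778 (0.0778 without replicate 2). The Forkhead difference from deep intronic peaks became 0.553 in the stronger 50% and lay between -0.225 and 0.306 (0.306 without replicate 2). The cause of these changes was not tested.

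The near-start intronic share rose to 25.7% over every peak of the replicate lists, and the stronger 50% of the IDR list held 735 members. The share in a first intron was 47.8% when every transcript had to agree, 56.7% by the longest transcript and 74.3% beyond 1000 bp. The share matched in all replicates was 64.5% with any overlap, 57.8% with summits within 100 bp, 70.2% in whole lists, 24.3% in the stronger 50% of the cut lists, and 49.9% to 52.2% when 1 replicate was left out and a match was needed in the other 2. Hosts with a promoter peak were 44.9% with a window of 250 bp and 72.2% with 1000 bp, which takes in members themselves, 34.2% in the stronger 50% of the IDR list and 32.7% to 41.8% when peaks had to match in the other 2 replicates, against 23.0%, 30%, 16.1% and 15.0% to 18.2% of other genes.

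No paired analysis was possible because there is 1 group of samples, though classes of peaks were compared within each replicate. Peak lists without read counts leave the precision of single peaks unknown, and without a group lacking the tag, signal of the tagged protein and of the procedure cannot be told apart.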
